A study of Mus musculus with 2 samples.

Results

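The genes described here encode the proteins of the cytosolic ribosome. They were taken by symbol: every row named Rpl or Rps followed by a digit, together with Rplp0, Rplp1, Rplp2 and Rpsa, without rows named as pseudogenes (-ps) and without the Rps6k kinases. This gave 86 of the 32285 rows. By known role they are 43 proteins of the large subunit, 31 of the small subunit, the 3 proteins of the large subunit's stalk, 8 paralogs or copies of a subunit gene (Rpl22l1, Rps27l, Rps27rt, Rpl36al, Rpl39l, Rpl7l1, Rpl3l and Rpl10l) and Rps19bp1, which fits the symbol rule but encodes a protein that binds a ribosomal protein and is no subunit. Fau and Rack1, whose products are part of the ribosome, carry other symbols and are given separately below. In counts per 1000000 unique molecular identifiers (UMIs; CPM), 83 of the 86 reached 20 CPM in at least 1 of the libraries. Rpl39l, Rpl3l and Rpl10l did not: Rpl39l had 250 and 265 UMIs in the Mito-high and Mito-low libraries, Rpl3l 3 and 0, and Rpl10l 1 and 3. Where a library had no UMI, up to 3 are allowed by counting error.

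The cells were mouse regulatory T (Treg) cells, which restrain other immune cells under the control of the transcription factor Foxp3. They had been stained with the mitochondrial dye MitoTracker, and a bright population (Mito-high) and a dim one (Mito-low) had been collected by flow cytometry. Each population was made into 1 library with a 10x Genomics kit that counts transcripts at their 5′ end. The sources used here give no strain, genotype, tissue, age, sex or treatment of the mice, and do not say whether animals were pooled. Cells were placed in classes by detected transcripts. Resting cells had at least 1 UMI of Igfbp4. Effector cells had UMIs of at least 2 of the 3 genes Ccl5, Il10 and Klrg1, and cycling cells of at least 3 of the 6 genes Pclaf, Birc5, Mki67, Top2a, Rrm2 and Cdca8. Cells that met none of these definitions are called other cells, and the 120 Mito-high and 11 Mito-low cells that met more than 1 were left out of the classes. With 1 library per population there was no test and no replicate check. All intervals below are 95% intervals that cover counting error only, and every library difference is one between these 2 libraries.

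Ribosomal proteins join ribosomal RNA in the nucleolus to form the small subunit, which decodes messenger RNA, and the large subunit, which joins amino acids. Their messenger RNAs are among the most abundant of a lymphocyte and are known for a 5′ terminal oligopyrimidine (TOP) tract, a run of C and T that begins with C at the first transcribed base. Through this tract their translation follows the activity of the kinase complex mTORC1, with LARP1 as a binding protein. Some subunit genes have paralogs, among them Rps27l, which is known as a target of p53, and Rpl22l1.

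The start regions of some of the genes named below show where this annotation has the tract at the listed start. Each line gives 10 bases before and 20 from an annotated transcription start, 5′ to 3′ on the gene's strand, from RefSeq on GRCm38.p6. Capitals mark a run of C and T of at least 5 bases that begins with C at the start itself.
Rps27 (chr3:90213629-90213658, minus strand): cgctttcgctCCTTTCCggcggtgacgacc
Rps27rt (chr9:114982720-114982749, minus strand): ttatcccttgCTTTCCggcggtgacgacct
Rps27l (chr9:66946076-66946105, plus strand): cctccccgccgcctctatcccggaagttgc
Rpl38 (chr11:114668570-114668599, plus strand): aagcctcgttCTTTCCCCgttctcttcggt
Rps15a (chr7:118116128-118116157, minus strand): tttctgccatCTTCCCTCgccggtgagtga
Rpl28 (chr7:4792955-4792984, plus strand): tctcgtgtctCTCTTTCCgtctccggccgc
Rpl15 (chr14:18270967-18270996, minus strand): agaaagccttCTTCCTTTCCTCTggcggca
Rpl22l1 (chr3:28805498-28805527, plus strand): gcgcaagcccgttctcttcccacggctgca
The run is 7 bases in Rps27, 6 in its copy Rps27rt, 8 in Rpl38, Rps15a and Rpl28, and 13 in Rpl15. Neither Rps27l, at this start or at its other start in the table, nor Rpl22l1 has it at the listed base. Runs of at least 5 bases that begin with C lie a few bases from it in both printed windows. Rpl22, the partner of Rpl22l1, has 2 listed starts, not printed here. It lacks the run at both, and its longest run within a few bases of them is 3 bases. The printed genes are a selection in which the run is more frequent than among all members. Of genes named below but not printed, Rplp0, Rps2, Rpl10a, Rpl37a, Rps12, Rpl41, Rps24, Rps19, Rps16 and Rpl12 lack it at every listed start. Rps21, Rplp2 and Rpl35 have it at a listed start. Starts were listed for 66 of the 86 genes, 78 starts in all, and 14 of them (17.9%) had the run at the listed base, against 823 of 32851 starts of all genes (2.51%). The run was searched on the gene's strand only, and a start listed a few bases away hides it: within a few bases of the start, 41.0% of the starts of these genes and 18.3% of all starts had one.

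Total counts were 89996794 UMIs (Poisson interval 89978201 to 90015389) over 12352 barcodes for Mito-high, and 60688904 UMIs (60673636 to 60704175) over 11901 barcodes for Mito-low. Barcodes with at least 500 genes and with mitochondrially encoded (mt-) genes at 20% of UMIs or less were kept, 12217 and 11679 cells with medians of 6132 and 4668 UMIs. The libraries shared 38 barcode sequences. The Treg markers Foxp3, Il2ra, Ctla4, Ikzf2, Tnfrsf18, Tnfrsf4, Capg and Izumo1r all had UMIs in both, summing to 3968 and 5669 CPM. Of other cell types, the 6 B cell markers summed to 24.2 and 18.0 CPM, the 3 natural killer markers to 0.690 and 0.876 CPM, with Ncr1 at 0 in both, and the 5 myeloid markers to 81.9 and 104 CPM. Of the last sum Cst3 gave 80.4 and 102.8 CPM, and Lyz2, Csf1r, Itgam and Cd14 were each under 1 CPM.

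Ribosomal protein transcripts took a larger part of the transcriptome in Mito-high than in Mito-low cells, and a larger part in resting than in effector cells of either library. Over all kept cells they made up 31.8% of Mito-high UMIs (31.77% to 31.79%) and 25.7% of Mito-low UMIs (25.65% to 25.68%). The ratio of the shares was 1.24. Resting cells had 35.1% and 34.1%, the highest share of any class in each library. Effector cells had 25.6% and 23.8%, and cycling cells 28.3% and 25.3%. Other cells, which made up 72.3% and 85.0% of kept cells, had 31.4% and 25.8%. The library difference was thus unequal between classes. It was 0.96 percentage points in resting, 1.79 in effector, 2.96 in cycling and 5.56 in other cells, and every one of these had Mito-high above Mito-low. The Mito-low resting and cycling classes are small, with 185 and 30 cells.

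Cells within a class varied more than the classes' means differed. The share per cell had a median of 35.7% in Mito-high resting cells, with a 5th to 95th percentile range of 24.8% to 45.4%, and of 34.0% in Mito-low resting cells, with a range of 18.4% to 45.9%. Effector cells had medians of 24.6% (17.5% to 34.4%) and 23.4% (15.9% to 31.6%), so the upper part of the effector range lies inside the resting range in both libraries. Over all kept cells the medians were 32.0% and 24.5%. In number of molecules, the median Mito-high cell held 2005 ribosomal protein UMIs and the median Mito-low cell 1146. The plot of shares per cell shows these ranges by class.

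**Figure D1:**
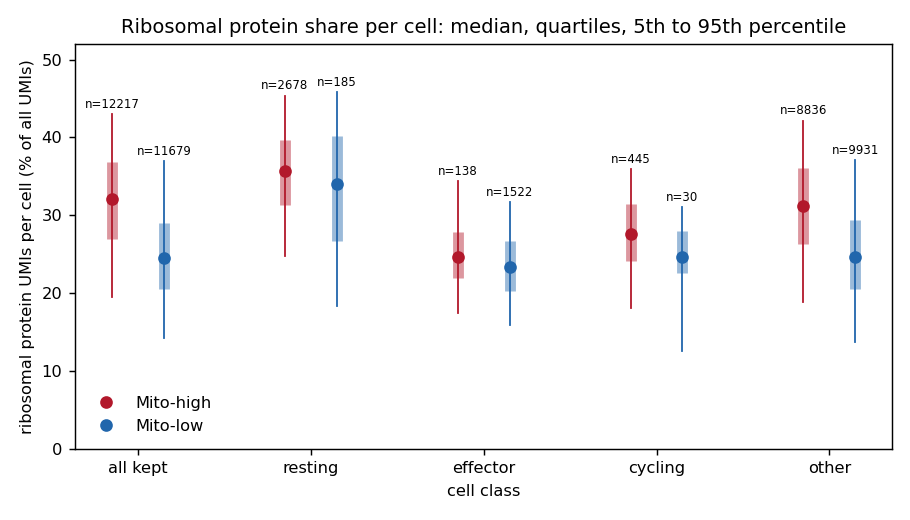
Ribosomal protein UMIs as a percentage of all UMIs of a cell (vertical axis) in all kept cells and in the 4 classes (horizontal axis), Mito-high in red and Mito-low in blue; points are medians over cells, thick bars the quartiles, thin lines the 5th to 95th percentile, and n is the number of cells. Resting cells have the highest medians in both libraries (35.7% and 34.0%), and the ranges of all classes overlap.

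The share also followed depth at the shallow end. In Mito-high the 139 cells under 2000 UMIs had a median share of 5.56%, beside a median mt- share of 9.58%, while in every deeper bin the median lay between 27.0% and 33.2%. In Mito-low the 491 cells under 2000 UMIs had 15.96%, beside an mt- share of 4.49%, and deeper bins lay between 22.6% and 28.4%. Within each bin from 2000 UMIs upwards the Mito-high median was the higher one, by 32.8% against 24.7% at 4000 to 5000 UMIs, for example. Other RNA classes moved with the libraries as well. The nuclear transcript Malat1 took 0.959% of Mito-high and 1.81% of Mito-low UMIs, and mt- genes took 3.44% and 3.23%. Reads of Gm42418, which lies over ribosomal RNA repeats, took 0.146% and 0.402%. Among resting cells, where ribosomal protein shares were nearest, Gm42418 was at 0.141% and 0.876%. The part of RNA quality and depth in the library difference was not tested.

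Other cells are a mixture, and the share within them followed a gene outside the class definitions, chosen after the values were seen. Among other cells of 4000 to 6000 UMIs, Mito-high cells with a UMI of Ccr7, the lymph node homing receptor, and none of S100a4, a calcium-binding protein of effector and memory T cells, had a share of 32.7% (2153 cells). Mito-high cells with S100a4 and no Ccr7 had 23.9% (222 cells). In Mito-low the same groups had 29.2% (764 cells) and 23.9% (1489 cells). At this depth the counting intervals of cells with S100a4 only overlapped between the libraries (23.83% to 23.98% and 23.86% to 23.93%), while those with Ccr7 only and those with neither gene (31.5% and 25.3%) were higher in Mito-high. Cells with S100a4 only were 222 of 3197 in Mito-high and 1489 of 3930 in Mito-low.

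Gene by gene, most ribosomal protein genes were higher in Mito-high by a modest amount. On the log2 scale of CPM, Mito-high over Mito-low, the median of the 83 measured genes was 0.38 (quartiles 0.23 and 0.49), against −0.15 for all 5787 genes at 20 CPM or more. Of the 83, 71 lay above 0, as did 31.9% of all genes. At least 1.5-fold higher in Mito-high were 10 of them, against 3.65% of all genes, and 0 were 1.5-fold lower, against 10.7% of all genes. At 1.2-fold, 58 were higher (12.6% of all genes) and 3 lower (35% of all genes). Counts at 1.5-fold depend on the scaling. With edgeR's TMM factors 37 of the 83 were 1.5-fold higher and with the median of all genes set to 0 it was 30, again with 0 lower. Over all genes, the 211 higher and 617 lower calls on CPM became 424 and 357 with TMM.

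The genes past 1.5-fold came from both subunits, and 9 of the 10 are given, Rplp0 among the stalk proteins. Rps2, a protein of the messenger RNA entry channel, was at 4113 CPM against 2681 CPM, Mito-high first, a log2 ratio of 0.62 (0.61 to 0.63). Rps20 was at 6229 and 4105 CPM (0.60), and Rps4x, the X-linked S4 gene, at 4337 and 2887 CPM (0.59). Of the large subunit, Rpl15 was at 3425 and 2143 CPM (0.68), Rpl10a at 2942 and 1845 CPM (0.67), Rpl28 at 3431 and 2180 CPM (0.65), Rpl23a at 2167 and 1402 CPM (0.63) and Rpl7 at 3119 and 2072 CPM (0.59). Rpl5, which binds 5S ribosomal RNA, lay just under the threshold with a ratio of 0.58. Among cells of 4000 to 6000 UMIs Rps2 had 0.43, under 1.5-fold. Rps20, Rpl15, Rpl10a, Rpl28 and Rpl23a had 0.65, 0.69, 0.69, 0.64 and 0.66 at this depth. The 31 small-subunit genes had a median of 0.40 and the 43 large-subunit genes 0.35, and the small subunit gave 45.9% of Mito-high and 45.3% of Mito-low ribosomal protein UMIs.

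The stalk proteins, which recruit elongation factors to the large subunit, did not move alike. Rplp0, the stalk's base, stood at 4908 and 3113 CPM, or 0.66 as a log2 ratio (0.65 to 0.66). Its partners had smaller ratios, Rplp1 of 0.24 (7914 and 6687 CPM) and Rplp2 of 0.19 (4270 and 3738 CPM). Within effector cells the gap was wider: Rplp0 had a ratio of 0.63, Rplp1 of 0.10 and Rplp2 of −0.04. Rpsa, the small-subunit protein also known as laminin receptor, was at 5168 and 4049 CPM, a ratio of 0.35. The most abundant members by UMI count, which is not divided by length, were Rps24, Rps15a, Rplp1, Rpl13 and Rpl23, and their ratios lay between 0.24 for Rplp1 and 0.49 for Rpl13.

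**Figure D2:**
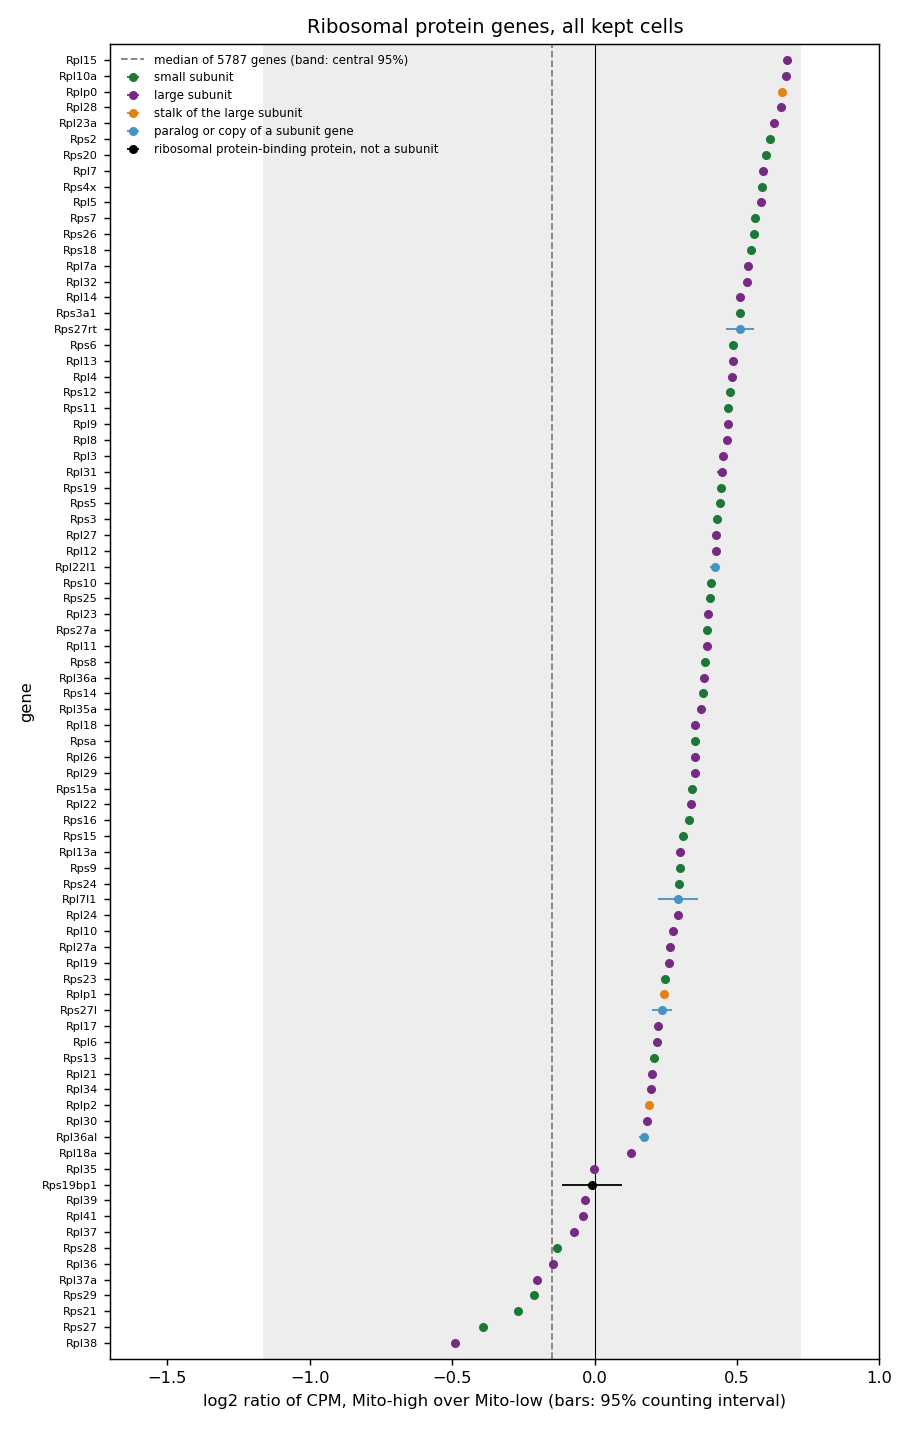
Log2 ratio of CPM, Mito-high over Mito-low, for 82 of the 83 ribosomal protein genes at 20 CPM or more, sorted; points are coloured by role and bars are 95% counting intervals, mostly narrower than the points. The dashed line is the median of all 5787 genes (−0.15) and the grey band their central 95%; 70 of the genes plotted lie above 0, from Rpl15 at 0.68 down, and Rpl38 is lowest at −0.49.

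A set of small proteins went the other way. Rpl38 was at 2399 CPM against 3371 CPM, Mito-high first, a log2 ratio of −0.49 (−0.50 to −0.48), and Rps27 at 4234 and 5556 CPM, a ratio of −0.39. Rps21 (−0.27), Rps29 (−0.21), Rpl37a (−0.20), Rpl36 (−0.14), Rps28 (−0.13) and Rpl37 (−0.07) followed. Rpl37, Rpl37a, Rps27 and Rps29 encode zinc-binding ribosomal proteins, but Rps27l, the paralog of Rps27, lay above 0 (0.24). Zinc-binding members were not compared as a group. Rpl38, Rps27, Rps21, Rps29 and Rpl37a stayed below 0 under every scaling, while Rps28 and Rpl37 were above 0 under each scaling other than CPM, and Rpl36 with TMM and with the median set to 0. Under these scalings all 8 remain the lowest members, since a scaling shifts every gene alike. Among cells of 4000 to 6000 UMIs their ratios were smaller in size. Rpl38 had −0.44, Rps27 −0.15, Rps21 −0.21, Rps29 −0.10, Rpl37a −0.15, Rpl36 −0.08, Rps28 −0.03 and Rpl37 −0.04. At this depth Rps27l (−0.37) and Rps19bp1 (−0.29) lay below all of these but Rpl38. The part of depth in the low ratios was not tested.

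The low ratios went with short coding sequences. The coding sequence, without its stop codon, runs from 75 nucleotides in Rpl41 to 1257, with a median of 453. The 11 members of up to 300 nucleotides showed a median of −0.13 on the log2 scale. Above 0 were 2, Rps27l (0.24) and Rps27rt (0.51). The 30 members over 300 and up to 450 nucleotides had a median of 0.35, the 19 over 450 and up to 600 nucleotides 0.38, and the 23 longer ones 0.49. Across the 83 members Spearman's rho with coding length was 0.54, while across 5569 other genes it was −0.29; genes of a library share its depth and preparation and are not independent. Other genes of up to 300 nucleotides did not show the low values: 172 of them had a median of 0.03. The pattern held within each class. Of the 11 short members, 9 lay below 0 in all 4 classes, and of 71 longer ones measured in all classes 2 did, Rpl35 and Rpl36. Leaving out the short members moved the median of the rest to 0.40.

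**Figure D3:**
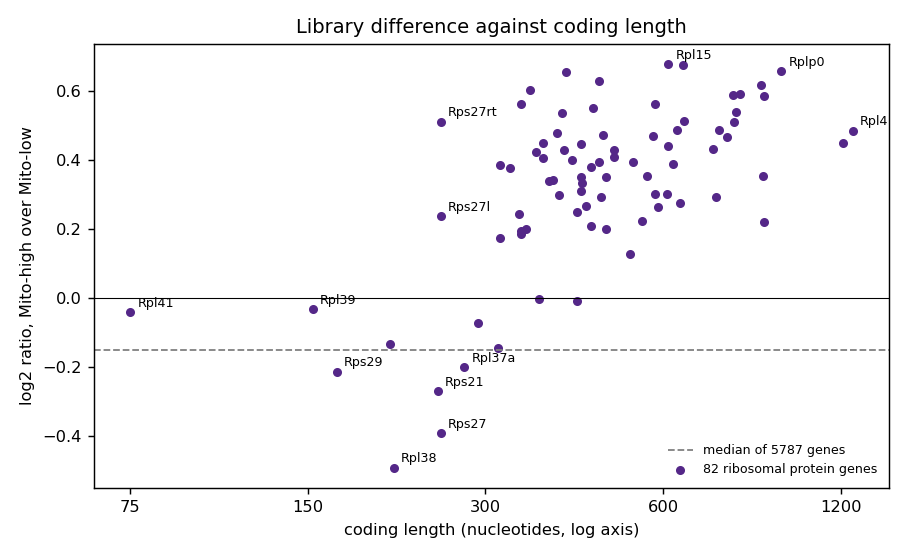
Log2 ratio of CPM, Mito-high over Mito-low (vertical axis), against coding length in nucleotides on a log axis (horizontal axis); each point is 1 of 82 ribosomal protein genes and the dashed line is the median of all 5787 genes. The 11 genes of up to 300 nucleotides have a median of −0.13, with Rps27l and Rps27rt as the 2 above 0, and the 23 longest a median of 0.49.

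Within each class the members' median library ratio was smaller than the 0.38 over all kept cells. Single genes did not all follow, and Rps27 went from −0.39 over all kept cells to −0.77 in effector cells. The standard deviation over members was 0.25 in all kept cells and 0.21, 0.28, 0.25 and 0.24 in resting, effector, cycling and other cells. In resting cells the median of 82 measured members was 0.089 (all genes −0.05), 0 were 1.5-fold higher (2.81% of all genes) and 1, Rpl38 at −0.62, was 1.5-fold lower (6.02%). In effector cells the median was 0.17 (all genes −0.06), with Rplp0, Rpl28 and Rps2 1.5-fold higher (7.33%) and Rps27 and Rpl38 1.5-fold lower (9.81%). Cycling cells had a median of 0.22, with 1 member 1.5-fold higher, Rps27rt (11.9%), and 0 lower (23.8%). That value of Rps27rt comes from 530 Mito-high and 10 Mito-low UMIs, and the division of its reads from those of Rps27 is uncertain. Other cells had 0.34, with 6 higher (2.58%) and 0 lower (8.74%).

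Resting against effector cells gave a broad difference over the whole set in both libraries. As a log2 ratio, the shares of the 2 classes differed by 0.45 (Mito-high) and 0.52 (Mito-low). The median over the 83 members was 0.44 in Mito-high and 0.51 in Mito-low, against −0.23 and −0.20 for all genes. Above 0 were 78 and 81 of the 83, against 34.6% and 34.4% of all genes. At least 1.5-fold higher in resting cells were 18 members in Mito-high and 35 in Mito-low, against 8.85% and 8.04% of all genes, and 1 was 1.5-fold lower in each, Rps27l, against 25.9% and 23.5%. TMM moved all ratios up by 0.27 and 0.14, and the higher members then numbered 61 and 52. Over all genes the higher calls went with TMM from 513 to 1035 of 5796 and from 478 to 695 of 5944. Between the libraries, the 83 members' ratios had a Pearson r of 0.85 and a Spearman rho of 0.73, with Rps27l far from the rest in both. Over 5431 other genes Pearson's r was 0.83. No cell is common to the sets, but each gene's sequence is.

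Small-subunit proteins led this contrast. Rps29, a small zinc-binding protein, was at 5253 CPM in resting and 3065 CPM in effector cells of Mito-high (log2 ratio 0.78) and at 7685 and 4439 CPM in Mito-low (0.79). Rps16 had ratios of 0.76 and 0.80, Rps19, the gene mutated most often in Diamond-Blackfan anaemia, 0.71 and 0.85, and Rps20 0.67 and 0.87. Of the large subunit, Rpl12, a neighbour of the stalk, had 0.74 and 0.82. As groups, the small-subunit genes had medians of 0.53 and 0.63 and the large-subunit genes 0.41 and 0.49, and the small subunit's part of ribosomal protein UMIs was 46.4% and 46.3% in resting against 44.4% and 44.5% in effector cells. Coding length did not order this contrast as it did the libraries: rho was −0.06 in Mito-high and 0.26 in Mito-low.

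A few members were level or went against the rest. Rps12 was at 4832 CPM in resting and 5105 CPM in effector cells of Mito-high (−0.08) and at 3926 and 3832 CPM in Mito-low (0.04, −0.01 to 0.08). Rpl41, the shortest member, had −0.09 and 0.13. Rplp0, Rpsa and Rps2 were nearly level in Mito-high, with 0.13, 0.04 and 0.06, but had 0.48, 0.42 and 0.46 in Mito-low; the differences between the libraries were not tested. Rps19bp1, at 16.7 to 33.4 CPM in Mito-high classes, had −0.55 (−1.05 to 0.09) and −0.15 (−0.93 to 0.44), with intervals that include 0. Treg markers summed to 3161 and 3443 CPM in resting and 5830 and 6645 CPM in effector cells. This difference was carried mostly by Ikzf2, Ctla4, Tnfrsf4 and Tnfrsf18. Il2ra was lower in effector cells, at 253 against 205 CPM in Mito-high and 261 against 166 CPM in Mito-low, and Foxp3 was at 27.0 against 20.5 and 35.6 against 44.8 CPM. Depths differed between the classes too, with medians of 6317.5 and 8193 UMIs in Mito-high and 5582 and 5272.5 in Mito-low. At 4000 to 6000 UMIs the ratio of shares was 0.58 and 0.55, from 1010 resting and 30 effector cells of Mito-high and 72 and 606 of Mito-low.

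**Figure D4:**
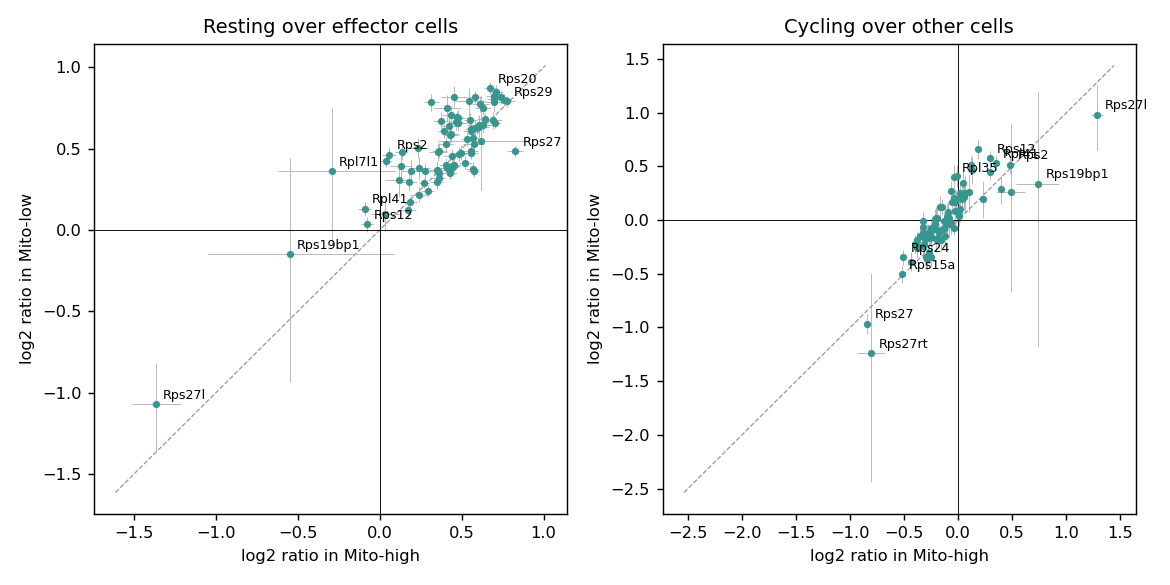
Log2 ratios of CPM for 82 of the 83 ribosomal protein genes, Mito-high on the horizontal and Mito-low on the vertical axis; left, resting over effector cells, right, cycling over other cells. Grey bars are 95% counting intervals and the dashed line marks equal values. Rps27l is lowest on the left (−1.37 and −1.07) and highest on the right (1.29 and 0.98). Rps27 has the opposite signs (0.83 and 0.48 on the left, −0.84 and −0.97 on the right).

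Cycling cells, which are known to make many ribosomes before division, did not hold a larger share of ribosomal protein transcripts than other cells. The ratio of shares, cycling over other, was on the log2 scale −0.15 for Mito-high (interval −0.153 to −0.149) and −0.030 for Mito-low (−0.040 to −0.019). Among cells of 8000 UMIs or more it was −0.16 and −0.10. In number of molecules the median cycling cell was well above the median other cell, with 4523 against 1849 ribosomal protein UMIs in Mito-high and 2573 against 1126 in Mito-low, as its total was: 16452 against 5852 and 9936 against 4555 UMIs. The median over members was −0.14 in Mito-high and −0.01 in Mito-low, against 0.043 and 0.064 for all genes. The Mito-high median stayed below 0 under every scaling. In Mito-low the median lay between −0.10 and −0.01 under the scalings. A typical member's counting interval there, −0.10 to 0.08 around the median, included 0. Above 0 were 23 and 40 of the 83, against 52.4% and 54.3% of all genes. At least 1.5-fold higher were 2 members in each library, against 18.3% and 22.6% of all genes, and 2 were lower in each, against 12.8% and 16.2%.

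Single members lay on both sides of 0 in both libraries. Rps2 was higher in cycling cells, at 5475 against 3922 CPM in Mito-high (log2 ratio 0.48) and 3825 against 2676 CPM in Mito-low (0.52). Rps12 had 0.29 and 0.58, Rpl41 0.35 and 0.53, and Rpl28, past 1.5-fold in Mito-low, 0.18 and 0.66. Rps19bp1 had 0.74 (0.53 to 0.93) and 0.34 (−1.17 to 1.20). Rps27 was lower, at 2388 against 4284 CPM in Mito-high (−0.84) and 2903 against 5677 CPM in Mito-low (−0.97). Its copy Rps27rt, whose reads are not surely separated from those of Rps27, had −0.81 and −1.24, the latter from 10 cycling UMIs. These were the 2 members at least 1.5-fold lower in each library. Rps15a (−0.52 and −0.50), Rps24 (−0.51 and −0.35) and Rps14 (−0.44 and −0.39) followed. The members' ratios in the 2 libraries had a Pearson r of 0.87 and a Spearman rho of 0.91 over the 83 genes (Pearson's r 0.78 over 5433 other genes). The Mito-low values rest on 30 cells and 303491 UMIs.

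Rps27l and Rps27, paralogs that encode the S27 protein of the small subunit, moved in opposite directions between the classes. Of the UMIs of the pair, Rps27l had 2.47% in resting (2.37% to 2.56%), 4.004% in other, 10.3% in effector (9.42% to 11.3%) and 15.4% in cycling cells (14.9% to 15.9%) of Mito-high. In Mito-low the shares were 1.57%, 2.66%, 4.51% and 9.46% (7.69% to 11.47%). The order of the classes was the same in both libraries, and each Mito-high class lay above its Mito-low counterpart. In CPM, Rps27l was at 128, 179, 330 and 435 in resting, other, effector and cycling cells of Mito-high and at 109, 155, 230 and 303 in Mito-low. Rps27 was at 5077, 4284, 2861 and 2388 and at 6815, 5677, 4875 and 2903, so both genes contributed. Its own ratio of resting over effector cells was 0.83 in Mito-high and 0.48 in Mito-low. The median over the 83 members was 0.44 and 0.51, so in Mito-low Rps27 moved like a typical member. The ratio of resting over effector cells for Rps27l was −1.37 (−1.51 to −1.21) and −1.07 (−1.36 to −0.82), and of cycling over other cells 1.29 and 0.98. Their GENCODE M21 transcripts differ at 60 of 254 aligned bases, and the longest identical run is 11 bases.

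The Rps27l share also followed depth within a class. In other cells of Mito-high it was 2.24% under 4000 UMIs, 2.48% at 4000 to 6000 UMIs and 7.97% at 12000 UMIs or more, and in Mito-low 2.09%, 2.50% and 4.19%. At 4000 to 6000 UMIs the effector cells still stood above the resting ones, with 5.90% (4.15% to 8.11%) against 1.65% in Mito-high and 3.83% against 1.13% in Mito-low, and other cells had 2.48% and 2.50%. Over all kept cells Rps27l itself had a library ratio of 0.24 on the log2 scale, but −0.37 at this depth. From 8000 UMIs upwards, cycling over other cells gave 0.89 and 0.84. With each cell thinned to 2000 UMIs, a UMI of Rps27l was found in 20.02%, 25.3%, 46.4% and 55.1% of resting, other, effector and cycling cells of Mito-high and in 18.9%, 24.5%, 33.4% and 46.7% of Mito-low; unthinned, it was found in 51.0%, 54.5%, 84.8% and 96.4% and in 42.7%, 45.7%, 64.8% and 83.3%. Cells with fewer UMIs were left out of the thinning, 139 of Mito-high and 491 of Mito-low.

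The other pairs differed in their order over the classes. Rpl22l1 had 27.5% of the UMIs of Rpl22 and Rpl22l1 in resting, 27.9% in other, 28.4% in effector and 32.5% in cycling cells of Mito-high, and 25.7%, 27.5%, 25.6% and 30.8% in Mito-low. Cycling cells were highest in both libraries, although the Mito-low interval of 27.8% to 33.9% comes near to the other classes. Rpl36al, the paralog of Rpl36a, had 30.4% of its pair in resting and 39.3% in effector cells of Mito-high and 29.8% and 38.3% in Mito-low. Cycling cells had 34.8% and 38.6%. Its own level was nearly even, at 825 and 805 CPM in those Mito-high classes, while Rpl36a was at 1892 and 1243 CPM. Rpl7l1, a nucleolar relative of Rpl7, had between 1.39% and 2.41% of its pair in every class. Rpl39l, under the level at which a gene was counted as measured, had 0.0315% of its pair in resting (31 UMIs) and 0.232% in effector cells (13 UMIs, 0.123% to 0.396%) of Mito-high, and 0.0636% (4 UMIs) and 0.0870% (40 UMIs) in Mito-low.

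Rps27rt behaved unlike the paralogs. It had 2.64%, 2.76%, 3.02% and 2.82% of the UMIs of Rps27 and Rps27rt in resting, other, effector and cycling cells of Mito-high and 1.54%, 1.48%, 1.49% and 1.12% in Mito-low. The share thus differed between the libraries and was even over the classes. Of the 345 bases of the Rps27 transcript, 341 are identical in that of Rps27rt, in 1 unbroken run. The division of reads between them is therefore uncertain, and the counts of Rps27rt cannot be taken as its own expression. The counts of Rps27, with its ratios and its pair share with Rps27l, depend on the same division.

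**Figure D5:**
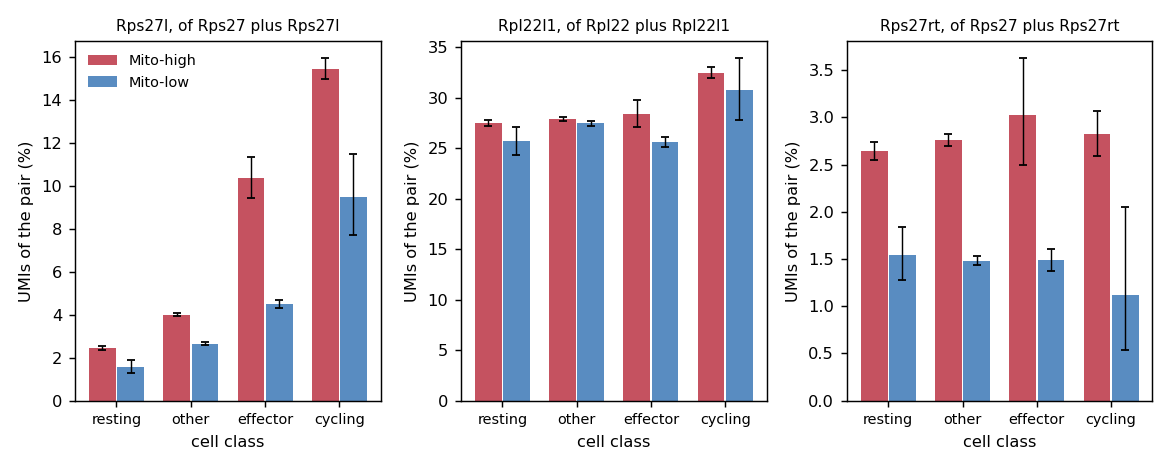
Share of a paralog in the UMIs of its pair (vertical axis, %, from 0) by class, Mito-high in red and Mito-low in blue, with 95% binomial intervals; panels show Rps27l, Rpl22l1 and Rps27rt. Rps27l is lowest in resting (2.47% and 1.57%) and highest in cycling cells (15.4% and 9.46%), while Rps27rt is near 3% in every Mito-high class and under 2% in every Mito-low class.

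Genes that act with the ribosome were taken from lists of known function. Of the ribosomal proteins with other symbols, Rack1 (2566 and 1819 CPM) had a library ratio of 0.50. Fau, which encodes the small-subunit protein S30 with a ubiquitin-like leader, was at −0.06 (5550 and 5781 CPM). All 7 elongation factors and relatives lay above 0, with a median of 0.50. Eef1a1, which brings transfer RNA to the ribosome, was at 6456 and 4555 CPM (0.50) and Eef1b2, its exchange factor, at 0.62; only Eef1b2 was past 1.5-fold. Of 29 initiation factors 20 lay above 0, with a median of 0.12, and 1 was 1.5-fold higher, the helicase Eif4a1 at 0.59. The 12 other TOP and nascent chain genes had a median of 0.40 and all lay above 0, with Npm1, a nucleolar chaperone, at 0.70 and Vim, the filament protein vimentin, at 0.75. Over all genes, 31.9% lay above 0 and 3.65% were 1.5-fold higher.

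Of 30 genes that build ribosomes (biogenesis genes) 24 were measured in the library comparison, with a median of 0.19. Past 1.5-fold were 6, against 3.65% of all genes: Nop16, Npm1, Nhp2, Gar1, Dkc1 and Mrto4, with 0.70, 0.70, 0.68, 0.68, 0.67 and 0.60. The library median of biogenesis genes differed by class. It was −0.094 in resting (24 genes), 0.24 in effector (24), 0.56 in cycling (27) and 0.099 in other cells (25). All genes had −0.05, −0.06, −0.15 and −0.14. Resting over effector cells gave biogenesis medians of 0.087 over 24 genes of Mito-high, with 3 of them 1.5-fold higher and 2 lower, and of 0.31 over 25 genes of Mito-low, with 7 higher and 1 lower. Over all genes 8.85% and 8.04% were higher and 25.9% and 23.5% lower. In cycling over other cells of Mito-high 27 biogenesis genes had a median of 0.41, with 6 higher and 0 lower, and in Mito-low 25 had a median of −0.033, with 5 higher and 4 lower. These counts lie near the shares over all genes, 18.3% and 22.6% higher and 12.8% and 16.2% lower, apart from the 0 lower in Mito-high. Aminoacyl tRNA synthetases, which charge transfer RNA, had medians of 0.47 and 0.60 over 17 genes in cycling over other cells, against 0.043 and 0.064 for all genes. Of the 17, 5 and 9 were 1.5-fold higher, against the same 18.3% and 22.6% of all genes. Resting over effector cells gave −0.32 and −0.15 for these synthetases, against −0.23 and −0.20 for all genes. Ribosomal proteins had 0.44 and 0.51 there. Small nucleolar RNA host genes, many of which carry a TOP tract, had a library median of 0.36 over 10 genes and medians of −0.37 and −0.36 in cycling over other cells.

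Regulators and p53 targets were mostly low in counts. Of 13 genes of TOP control by mTORC1, 6 were measured in the library comparison, with a median of −0.10. Above 0 were 2, and 0 were past 1.5-fold in either direction, with Larp1 at 0.11. Over all genes of the library comparison the median was −0.15, with 3.65% at least 1.5-fold higher and 10.7% lower. Of the RNA polymerase I and MYC genes 5 were measured, with a median of −0.13, and Myc was the 1 past 1.5-fold, at 46.5 against 23.1 CPM (1.005). Of 12 p53 targets 7 were measured, with a median of −0.29. Cdkn1a, the cell cycle inhibitor p21, was at 10.5 and 41.8 CPM (−2.00) and Trp53inp1 at 104 and 210 CPM (−1.01). In resting over effector cells these targets had medians of −0.48 and −0.38, against −0.23 and −0.20 for all genes, and 3 of 7 were 1.5-fold lower in each library, against 25.9% and 23.5% of all genes. In cycling over other cells, where Rps27l was at 1.29 and 0.98, they had −0.04 and −0.51.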

How the data were processed

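Members, cell classes and gene lists were chosen with earlier results of these data known. The authors deposited whole-number UMI counts, a gene by barcode matrix for each library, made with Cell Ranger 7.1.0 per the file headers. Seurat 4.3.0.1 and mm10 are listed in the submitters' processing notes. Which annotation release was used, whether introns were counted and how barcodes were filtered is not stated in these sources.

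Barcodes were filtered as in the report, with no doublet removal. UMIs were summed per library and class and scaled to CPM. Log2 ratios used a pseudo-count of 1 on each sum, with exact conditional-binomial 95% intervals. Shares have exact Clopper-Pearson intervals and totals Poisson intervals. UMIs are counted molecules, but droplet sampling and cell loss are outside these intervals. A gene was measured at 20 CPM or more on either side of a ratio, computed for all rows. With 1 library per group a 1.5-fold or 1.2-fold difference describes size and is no test. The ratios and intervals were run on simulated Poisson counts. These hold no variation between cells or libraries, so the simulation covers counting error only. Coding lengths and transcripts are from GENCODE M21 (GRCm38), found for all 86 members, and start sites from RefSeq.

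Genes named are the 8 largest and 8 smallest library ratios, the 5 largest and 5 smallest class ratios (mean of both libraries), those past 1.5-fold in the library comparison, the paralog pairs, the stalk proteins, Rpsa, the 5 most abundant, and list members with the 4 largest ratios. Rpl5, Rpl35, Rpl32, Rps15, Rps26, Mrto4, Larp1, Ccr7 and S100a4 were added after their values were seen. Python 3.11.15, numpy 2.4.6, scipy 1.17.1, pandas 2.3.3, R 4.3.3 and edgeR 4.0.16 (TMM factors only) were used. Values of 1 member and of a few list genes are not reported here, and the figures leave that member out.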

Additional observations from a re-analysis of the deposited data

Results flagged for a closer look

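Rows named as ribosomal protein pseudogenes were outside the comparisons. The 5 such rows of the files summed to 88.6 and 39.5 CPM, Mito-high first, above the limit that a count of 0 allows, led by Rpl9-ps6 (45.8 and 18.9 CPM), Rpl10-ps3 (21.9 and 10.1 CPM) and Rpl36a-ps1 (20.9 and 10.5 CPM). GENCODE M21 names 298 such copies for 60 of the members. How reads were divided between members and copies was not tested.

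For 4 members the cycling over other contrast had opposite signs in the 2 libraries, with counting intervals off 0 on both sides. The log2 ratio was −0.036 in Mito-high and 0.40 in Mito-low for Rpl35, −0.15 and 0.12 for Rpl32, −0.17 and 0.12 for Rps15, and −0.069 and 0.27 for Rps26. The difference was not tested, and the Mito-low values come from 30 cycling cells.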

How the results depend on the processing

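The log2 ratio of ribosomal protein shares, Mito-high over Mito-low (0.31), stayed above 0 under every alternative run. It was 0.040 in resting, 0.10 in effector, 0.16 in cycling and 0.28 in other cells alone, 0.14 with the 4 classes weighted alike, 0.35 with cells weighted alike, 0.36 at 4000 to 6000 UMIs, 0.29 without mt-, receptor, immunoglobulin, Gm42418 and Malat1 UMIs, 0.31 with at least 1000 genes and at most 10% mt-, and 0.33 without the 5% deepest cells. Added after seeing the data, it was 0.31 without cells with B cell markers and 0.30 from 2000 UMIs. Resting over effector cells (0.45 and 0.52) gave 0.44 in Mito-high with cells of several classes assigned in order, 0.50 and 0.50 with cells weighted alike, 0.58 and 0.55 at 4000 to 6000 UMIs, 0.60 and 0.53 with classes from thinned counts, and 0.52 in Mito-low with the stricter cell filter. Cycling over other cells (−0.15 and −0.03) gave −0.14 and −0.055 with classes assigned in order, −0.16 in Mito-high with cells weighted alike, −0.16 and −0.10 from 8000 UMIs, and −0.28 and −0.052 without the 5% deepest cells.

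The members' median library ratio (0.38) was 0.57 with TMM, 0.53 with the median of all genes at 0, 0.51 without mt-, ribosomal, receptor and immunoglobulin genes in the total, 0.089, 0.17, 0.22 and 0.34 in resting, effector, cycling and other cells alone, 0.43 at 4000 to 6000 UMIs and 0.40 for members over 300 nucleotides (added). The 10 members 1.5-fold higher became 37, 30 and 26 under those scalings, where all genes had 424, 362 and 345 higher and 357, 397 and 415 lower of 5787, 0, 3, 1 and 6 in the classes and 58 at 1.2-fold. The 0 lower became 1 in resting cells, 2 in effector cells, 2 over all members with a UMI and 3 at 1.2-fold. The scalings raised every library ratio by 0.19, 0.15 and 0.13.

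At 4000 to 6000 UMIs the Rps27l share of its pair was 1.65%, 5.90%, 11.4% and 2.48% in resting, effector, cycling and other cells of Mito-high and 1.13%, 3.83%, 1.89% and 2.50% in Mito-low, where 5 and 4 cycling cells remain. Its ratio of cycling over other cells in Mito-low there was −0.39 (−6.69 to 1.09), from 1 UMI. With classes assigned in order the Mito-high cycling share was 14.6%. The Rpl22l1 share at this depth was 26.7% in resting, 30% in cycling and 26.7% in other cells of Mito-high and 25.7% in Mito-low cycling cells. Of 198 values of 33 named members' library ratios under alternatives, 15 in 6 members lay on the other side of 0, among them Rps27l. The causes were not tested. No paired analysis was possible because each population has 1 library.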
